A study of Drosophila melanogaster with 2 samples.

Results

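Promoter peaks that entered the second of a pair of pooled lists of nerfin-2 binding sites, but share no base with the other, conservative list from the same embryos, are described here. Both lists come from chromatin immunoprecipitation followed by sequencing (ChIP-seq) on whole Drosophila melanogaster embryos. The second list held 3369 peaks, and 3358 of them were on the main arms of the chromosomes. Of these, 769 shared no base with a peak of the conservative list. A member is one of those 769 whose summit lay within 500 bp of the transcription start site (TSS) of a protein-coding gene, and there were 402 members. They made up 16.6% of the 2429 promoter peaks of the second list. The nearest genes of the members numbered 366, because 34 genes were nearest to more than 1 member. PKD and prtp each had 3 members.

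The single group consisted of embryos of the nerfin-2-GFP strain, a transgenic fly line that makes nerfin-2 fused to eGFP, collected at 8 to 24 h per the source label. There were 2 samples, labelled biological replicates 1 and 2, and no other genotype, treatment or time was compared. The tagged protein was pulled down with an antibody against GFP, and whole embryos pool all tissues, so a peak carries no cell type. The control experiment that the labels name was not analysed here, and the read depth of the samples is unknown from the peak lists.

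The protein nerfin-2 carries zinc fingers and is a close relative of nerfin-1, which acts in newly born neurons of the fly. Promoters of broadly active fly genes often carry the DNA replication-related element (DRE), which the factors DREF and BEAF-32 read, or Ohler motifs such as the one read by motif 1 binding protein (M1BP). Promoters of developmentally regulated fly genes often carry GAGA repeats, read by GAGA factor. Many fly promoters also have a neighbour, with start sites of genes on both strands close together.

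Sequences around the summits of 10 members are printed below to show what such a promoter holds. Each is the window of 50 bp to each side of the summit on genome build dm6 (Release 6 assembly, RefSeq), read 5′ to 3′ along the strand of the nearest gene. The first set shows 3 of the strongest members with a DRE, with the 8 letters TATCGATA in capitals. The gene ldbr encodes the enzyme that opens intron lariats, while CG12096 and CG2006 have only systematic names. The windows are chrX:13159702-13159802 on the plus strand, chr3R:29489462-29489562 on the plus strand and chr3L:8121722-8121822 on the plus strand.
CG12096: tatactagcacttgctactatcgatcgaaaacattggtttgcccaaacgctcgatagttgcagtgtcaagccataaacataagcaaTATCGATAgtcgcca
CG2006: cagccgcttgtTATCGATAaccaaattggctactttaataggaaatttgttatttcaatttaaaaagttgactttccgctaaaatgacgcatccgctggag
ldbr: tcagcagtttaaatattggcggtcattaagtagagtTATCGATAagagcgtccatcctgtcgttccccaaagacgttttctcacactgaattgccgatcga

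The second set shows 2 members with the M1BP motif, with GGTCACACT in capitals. Lamtor5 encodes a subunit of the Ragulator complex of the lysosome surface. The windows are chr2L:2857117-2857217 on the plus strand and chrX:1858911-1859011 on the minus strand.
CG2991: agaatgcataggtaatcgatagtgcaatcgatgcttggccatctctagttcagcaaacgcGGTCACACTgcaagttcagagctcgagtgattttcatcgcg
Lamtor5: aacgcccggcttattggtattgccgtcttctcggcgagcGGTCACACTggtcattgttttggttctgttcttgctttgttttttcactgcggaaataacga

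The third set shows the 3 strongest members with none of the 20 motifs searched, the state of 81 of the 402 members. Karybeta3 encodes an importin of the beta family. The windows are chrX:13782302-13782402, chr3R:4649423-4649523 and chr3L:3054915-3055015, all on the plus strand.
amrt: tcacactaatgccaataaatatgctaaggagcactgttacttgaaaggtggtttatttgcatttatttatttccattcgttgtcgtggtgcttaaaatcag
Karybeta3: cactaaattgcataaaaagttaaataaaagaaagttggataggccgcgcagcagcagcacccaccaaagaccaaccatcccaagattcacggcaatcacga
CG16753: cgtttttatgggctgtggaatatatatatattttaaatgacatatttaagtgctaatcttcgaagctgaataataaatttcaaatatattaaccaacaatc

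The fourth set, chosen after the values were seen, shows the 2 strongest members with a GAGA match, with GAGAG or its reverse complement in capitals. The gene trbl encodes the pseudokinase Tribbles, and svp encodes a nuclear receptor that times neuroblast divisions. The windows are chr3L:20401692-20401792 on the minus strand and chr3R:12280975-12281075 on the plus strand, and overlapping matches in svp run together.
trbl: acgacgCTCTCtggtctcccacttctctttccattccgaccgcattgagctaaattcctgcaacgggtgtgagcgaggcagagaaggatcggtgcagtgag
svp: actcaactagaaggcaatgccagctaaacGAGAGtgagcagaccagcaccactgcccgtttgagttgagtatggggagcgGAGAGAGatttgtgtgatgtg

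The members were chosen by their IDR rank, summit position and lack of overlap. The signal, the peak caller's value, comes from the same calls as the IDR rank, though the signal and the rank do not order peaks alike. The rank and the signal are therefore given as a description with no test. Member signals in the second list had a median of 74.8, with quartiles of 67.1 and 83.9, and ranged from 2.24 to 349. The 2151 conservative promoter peaks had a median of 134, with quartiles of 93.0 and 209. Members were therefore mostly low and narrowly spread, with a short tail of strong peaks. Of the 28 members with a signal under 30, 27 overlapped a stronger peak of the second list, the exception being the member at CG12104. In all, 38 members overlapped a stronger peak and 364 did not.

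The IDR, the irreproducible discovery rate, ranks a peak by how well its place holds between sets of calls, and the deposited score rises as the IDR falls. Member scores in the second list ranged from 830 to 1000 with a median of 945.5. In the ranked list behind the conservative one, the call at the same place had a median score of 593 and a highest score of 830, and 11 members had no call there. Just inside the second threshold lay the members at CG1532, with a score of 830 and an IDR of 0.009975, and at CG6055 and CG45263, both with a score of 831. Just outside lay ranked calls at CG10646, with a score of 829 and an IDR of 0.01008, and at fsd and Trim9, both with a score of 828. Their signals were 67.2, 69.3 and 80.2 inside and 53.4, 67.4 and 55.0 outside, so the sets on either side of the threshold overlapped in signal. A further 58 ranked promoter calls had a score of at least 830 and were absent from the second list.

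The strongest member lay 36 bp upstream of a start site of pan, which encodes the TCF factor of Wingless signalling. Its signal was 349 in the second list and 225 in replicate 1, and replicate 2 had no call there. The member at PlexB, a semaphorin receptor that guides axons, reached 176 in the second list and 96.1 in replicate 1, again with no call in replicate 2. Both lie on chromosome 4 and were the only members there. The member at trbl had 171 in the second list and 130 in replicate 1, that at CYLD, a deubiquitinase gene, had 139 and 86.8, and that at CG32112 had 137 and 83.4. None of these 3 had a call in replicate 2. Thus 5 of the 7 strongest members were seen in replicate 1 alone.

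The other strong members had calls in both replicates. At CG12096 the peak reached 138 in replicate 1 and 74.4 in replicate 2, and it passed the threshold of each replicate's own list. The member at svp had 119 in replicate 1 and 25.9 in replicate 2. The member at CG2006 had 88.3 in replicate 1 and 38.3 in replicate 2, and passed both thresholds. At CG8726 the signals were 90.04 in replicate 1 and 26.8 in replicate 2. At mam, which encodes the Notch coactivator Mastermind, they were 90.4 and 27.7, and at Karybeta3 they were 57.1 and 29.6. The member at amrt went the other way, with 52.3 in replicate 1 and 77.9 in replicate 2.

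Members leaned towards replicate 1. The replicate values come from the same reads as the choice of members, so they are given as a description with no test. Replicate signals were the strongest call overlapping the member in each replicate's own ranked list, and they were not rescaled between lists. Their median was 49.0 in replicate 1, where all 402 members had a call, and 27.5 in replicate 2, where 386 had one. The ratio of replicate 1 to replicate 2 had a median of 1.82, with quartiles of 1.30 and 2.36, and replicate 1 was higher at 322 of 386 members, or 83.4%. At conservative promoter peaks the median ratio was 1.27 and replicate 1 was higher at 79.97%, so the direction of the lean was shared and its size differed. At the 402 ranked promoter calls just below the second threshold, the median ratio was 1.33 and replicate 1 was higher at 71.8%. The median signal of the whole ranked lists was 13.9 in replicate 1 and 13.1 in replicate 2. Replicate 1 had 2554 thresholded peaks on the main arms and replicate 2 had 1737.

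A member was rarely in both replicates' thresholded lists. These lists come from the same reads as the choice of members, so the counts are a description and were not tested. Of the 402 calls just below the second threshold, 0 overlapped a peak of both, 49 of replicate 1 alone, 3 of replicate 2 alone and 350 of neither. Of the 402 members, 183 (45.5%) overlapped a thresholded peak of replicate 1 alone, 30 (7.46%) of replicate 2 alone, 4 of both and 185 (46.0%) of neither. Of the 2151 conservative promoter peaks, 1276 (59.3%) overlapped a thresholded peak of both, 429 of replicate 1 alone, 112 of replicate 2 alone and 334 of neither. The 4 members in both lists comprised a pair at CG2006 that overlap each other, CG12096 and Prp39, the last encoding a splicing factor. The lowest signal of any conservative promoter peak with a call was 30.5 in replicate 1 and 29.8 in replicate 2. In replicate 2, 284 members lay under that or had no call, and in replicate 1, 32 members did. Both values were reached at 90 members.

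**Figure D1:**
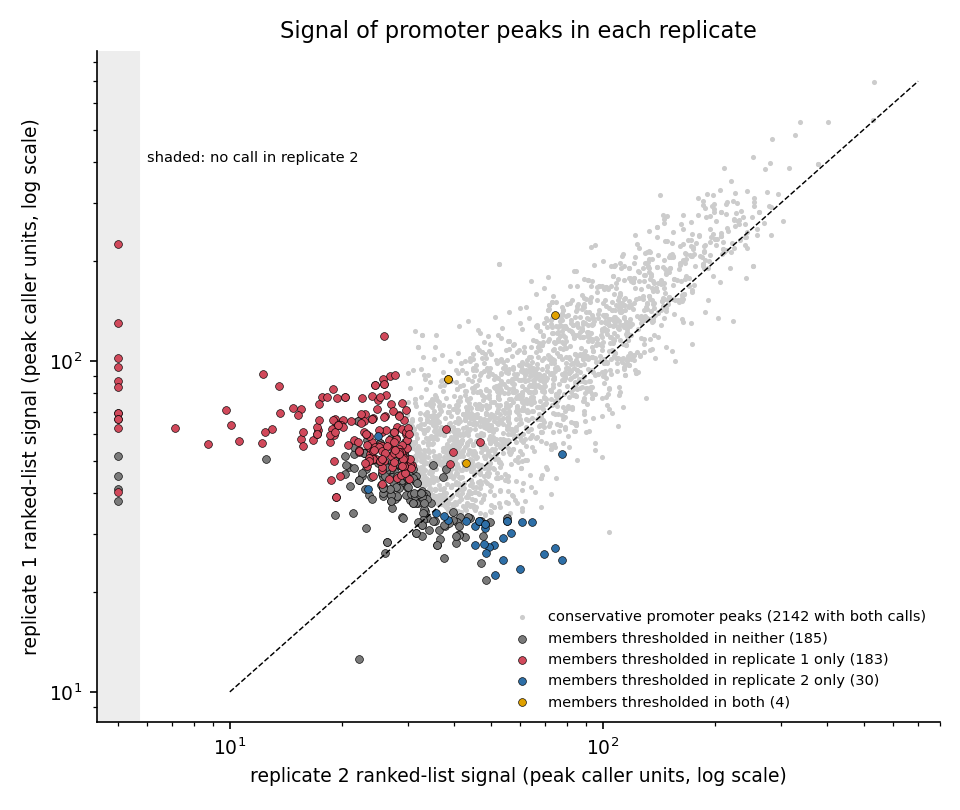
Signal of each promoter peak in replicate 1 (vertical axis) against replicate 2 (horizontal axis), in peak caller units on log axes, with conservative promoter peaks in light grey, members coloured by the replicate lists that held them, and the dashed line at equal signal. Most members lie left of the conservative cloud, with a median of 27.5 in replicate 2, and 16 members without a call in replicate 2 stand in the shaded strip at an arbitrary position.

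Some members leaned much further than the median. The highest ratios were 8.79 at kmr, 7.44 at CG3663, 7.29 at CG30065, 6.45 at fz, a Wingless and planar polarity receptor gene, and 6.35 at Gycalpha99B, which encodes a guanylyl cyclase subunit. At kmr the signal was 62.5 in replicate 1 and 7.11 in replicate 2, and at fz it was 56.3 and 8.72. Among the lowest ratios were 0.322 at sordd2, 0.376 at CG10098, 0.392 at CG5664 and 0.440 at CG8142. At sordd2 the signal was 25.01 in replicate 1 and 77.7 in replicate 2.

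The 16 members without a call in replicate 2 lay at 15 genes: pan, PlexB, trbl, CYLD, CG32112, fray, mbl, shn, betaTub56D, gish, CG7744, gus, CG40006, crc and Dok, with 2 overlapping members at Dok. The gene fray encodes a kinase, mbl the splicing regulator Muscleblind, shn the zinc finger protein Schnurri, and betaTub56D a beta tubulin. The nearest call of replicate 2 to the summit was 425 bp to 35471 bp away, with a median of 2988.5 bp and the farthest at pan. Within 5000 bp of the summit, replicate 2 had 0 to 8 calls with a median of 3, and replicate 1 had 6 to 15 with a median of 11.5. At pan, PlexB, CG32112, mbl and gish, replicate 2 had no call in that span, while replicate 1 had 6 to 12. Whether these stretches were covered by reads in replicate 2 was not tested.

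The next results turn to sequence and chromosome, which the choice of members did not use, and to neighbouring start sites. The choice used start sites in part, because it required at least 1 within 500 bp, in both sets alike. The distance to the start site was part of that choice and is given without a test. Peaks were the units of these tests and are not replicates of a condition, so p-values and intervals describe counting error over peaks. Members were compared with the 2151 conservative promoter peaks, and then with the 576 of those whose signal lay within the 5th to 95th percentile of the members' signal. The second comparison is called matched signal here, with a median signal of 83.2 against 74.8. The 402 ranked promoter calls just below the second list's threshold, with a median signal of 64.0, are given as a description. They exclude any call that overlaps a peak of either thresholded pooled list.

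Members seldom held a DRE. The DRE lay within 50 bp of the summit in 23 members (5.72%, Wilson 95% interval 3.84 to 8.44%) and in 481 conservative promoter peaks (22.4%). The odds ratio was 0.211 (95% interval 0.137 to 0.325, two-sided Fisher's exact test, Benjamini-Hochberg adjusted p = 1.25e-16). At matched signal the share of conservative peaks was 10.6%, the odds ratio 0.512 (0.312 to 0.843) and the adjusted p 0.0503, so that comparison missed the threshold of 0.05. Its inner letters ATCGAT were in 13.7% of members and 45.6% of conservative peaks (odds ratio 0.189, Fisher's exact test, adjusted p = 1.87e-35), and the matched odds ratio of 0.555 passed the threshold (adjusted p = 0.00828). The BEAF-32 partial site CGATA, which every DRE contains, was in 30.3% against 62.9%, with an odds ratio of 0.258 (Fisher's exact test, adjusted p = 1.94e-32) and a matched odds ratio of 0.754 (adjusted p = 0.233).

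The DRE share also moved with signal inside the conservative list, from 7.99% in the 538 promoter peaks with the lowest signal to 29.0% in the 538 with the highest. In calls just below the threshold the share was 3.23%, and in windows 500 bp to either side of the members' summits it was 0.249%. The 5 strongest members with a DRE were CG12096, CG2006, CG8726, ldbr and orb2, a translation regulator gene. Their second-list signals ran from 98.6 to 218.

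GAGA letters went the other way. GAGAG lay within 50 bp of the summit in 71 members (17.7%, 14.2 to 21.7%) and in 177 conservative promoter peaks (8.23%), with an odds ratio of 2.39 (1.77 to 3.23, adjusted p = 3.10e-07, Fisher's exact test). At matched signal the share of conservative peaks was 9.38% and the odds ratio 2.07 (1.42 to 3.03, Fisher's exact test, adjusted p = 0.00393), which passed the threshold. Calls just below the threshold held it at 16.7%, and the windows beside the members' summits at 11.8%. Of the 23 members with a DRE, 2 also held GAGA, and whether the motifs tend to occur apart was not tested. Among the 30 members thresholded in replicate 2 alone, 2 held GAGA (6.67%), and among the 183 in replicate 1 alone, 34 did (18.6%), a difference that was not tested. With the thresholded list of replicate 2 in place of the second list, GAGA was in 3 of 55 peaks (5.45%). It was in 6.16% of the 1364 promoter peaks of that same list that overlap a conservative peak. The odds ratio was 0.879, so its direction came out reversed there. With the thresholded list of replicate 1, compared in the same way, the odds ratio was 3.01.

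Other promoter letters differed less. Ohler motif 7 (CANCNCTA) was in 35 members (8.71%) and 14.9% of conservative peaks (odds ratio 0.546, 0.378 to 0.787, Fisher's exact test, adjusted p = 0.00285) and a matched odds ratio of 0.750 (adjusted p = 0.444). The GC box GGGCGG was in 22 members (5.47%) and 2.65%, with an odds ratio of 2.13 (Fisher's exact test, adjusted p = 0.0153), and it missed the threshold at matched signal with 1.61 (adjusted p = 0.427). The M1BP motif was in 6 members (1.49%) and 2.98%, with an odds ratio of 0.494 (0.212 to 1.15, Fisher's exact test, adjusted p = 0.263), an interval that includes no difference. In all, 6 of the 20 motifs passed the threshold, of which the DRE, its core and the partial site share letters, and 2 passed at matched signal, the DRE core and GAGA. The strongest of the 6 M1BP members was CG2991, with a signal of 84.0, followed by NKAIN, Lamtor5 and Cyt-c-p, a cytochrome c gene.

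**Figure D2:**
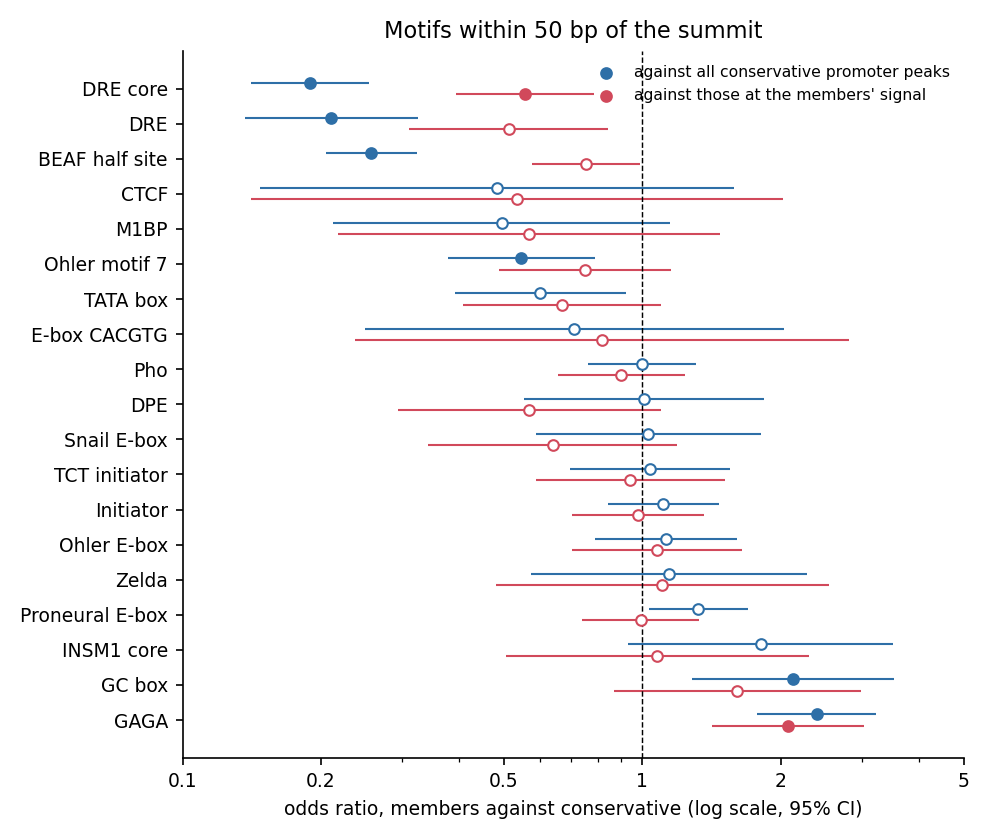
Odds ratio (log axis, bars are 95% intervals) of each of 19 motifs in members against conservative promoter peaks, all of them in blue and those at the members' signal in red, with filled points where the adjusted p was under 0.05. CRE, found in 0 of 402 members (Wilson upper bound 0.947%), is not drawn. The DRE core stays left of 1 and GAGA right of 1 with both comparison sets, while the DRE moves from 0.211 to 0.512.

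Members lay less often than conservative peaks between or beside start sites of both strands. A summit counts as divergent here when protein-coding start sites of both strands lie within 500 bp of it, whichever comes first. The choice of promoter peaks already required 1 start site in that span, in both sets alike, and did not use its strand. Of the members, 92 (22.9%, 19.0 to 27.2%) were divergent, against 36.8% of conservative promoter peaks. The odds ratio was 0.510 (0.398 to 0.654, two-sided Fisher's exact test, p = 3.74e-08), and at matched signal it was 0.703 (0.524 to 0.943, p = 0.0191). In replicate 2's own list the odds ratio was 1.05, for 55 peaks outside the conservative list against 1364 that overlap it. In replicate 1's own list it was 0.392, for 310 against 1694. Among members thresholded in replicate 2 alone, 14 of 30 (46.7%) were divergent, against 32 of 183 (17.5%) in replicate 1 alone, a difference that was not tested.

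**Figure D3:**
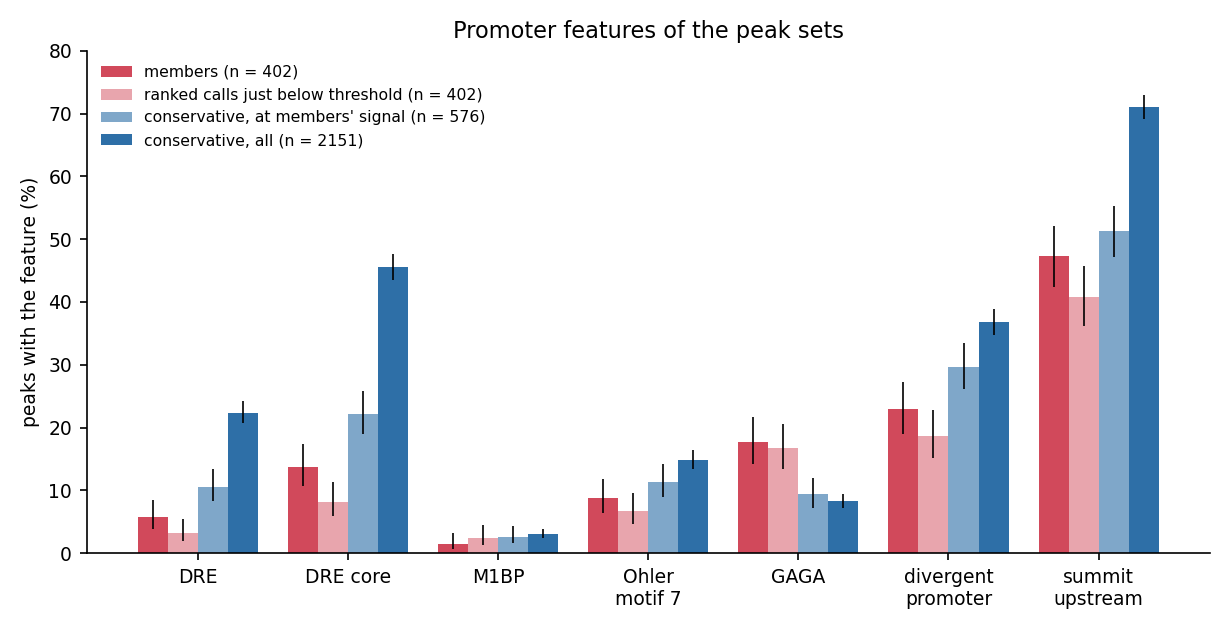
Share of peaks with each promoter feature (vertical axis, percent, bars with Wilson 95% intervals) in members, in calls just below the second threshold, and in conservative promoter peaks at the members' signal and in all. Members sit between the calls just below and the conservative peaks for DRE (3.23%, 5.72%, 22.4%) and divergent promoters (18.7%, 22.9%, 36.8%). M1BP (2.49%, 1.49%, 2.98%) and GAGA (16.7%, 17.7%, 8.23%) do not follow that order.

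Within the promoter window, summits of members lay at the following distances from the start site. The median distance was 92 bp against 53 bp for conservative promoter peaks, a difference of 39 bp, with both sets limited to 500 bp by the choice of promoter peaks. With limits of 250 and 1000 bp the difference was 25 and 57 bp. At matched signal it was 13 bp (92 against 79 bp). Members lay upstream of the start site in 47.3% of cases and conservative peaks in 71.0%, while at matched signal 51.2% of the conservative peaks did. Calls just below the threshold had a median distance of 135 bp, and 40.8% of them lay upstream. Between 1 and 50 bp upstream lay 16.2% of members and 33.9% of conservative peaks, and between 100 and 249 bp downstream lay 18.4% and 7.58%.

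**Figure D4:**
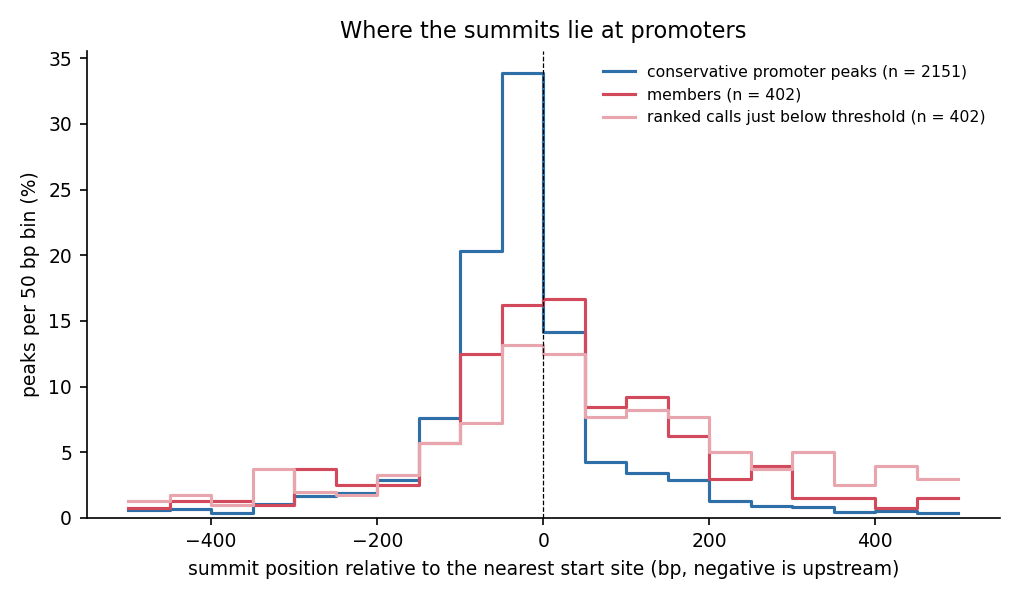
Share of summits (vertical axis, percent per 50 bp bin) by position relative to the nearest protein-coding start site (horizontal axis, bp, negative upstream). Conservative promoter peaks pile up just upstream, with 33.9% in the last 50 bp, while members reach 16.2% there and spread further downstream.

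The windows around members were richer in G and C than those around conservative promoter peaks, as were those of calls just below the threshold. Mean GC content within 50 bp of the summit was 46.3% ± 10.1 (SD over 402 peaks) in members and 41.9% ± 8.98 (SD over 2151 peaks) in conservative promoter peaks. The difference was 4.37 percentage points (permutation test with 100000 resamples, p = 1e-05, the smallest it can give), and at matched signal it was 1.81 (permutation p = 0.00497). Base composition therefore moved with the motif shares above, and its part in them was not tested. In calls just below the threshold the mean GC content was 47.4%, higher than in members. The nearest genes of members had a median length of 4586 bp, against 3488 bp for conservative promoter peaks.

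By chromosome, 99 members (24.6%) lay on arm 3L, against 17.6% of conservative promoter peaks (odds ratio 1.53, 1.19 to 1.97, Fisher's exact test, adjusted p = 0.00464). On X lay 46 members (11.4%) against 20.0% (odds ratio 0.517, 0.374 to 0.716, Fisher's exact test, adjusted p = 0.000189). Neither passed Fisher's exact test at matched signal, where the odds ratio was 1.38 on 3L (adjusted p = 0.139) and 0.608 on X (adjusted p = 0.0592). The other 5 arms did not pass the threshold in either comparison.

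The genes at members were set against gene lists as counts, with no test of a list. Of 12042 protein-coding genes with a ranked call of the second list within 500 bp of a start site, 468 (3.89%) had a member summit there and 2708 (22.5%) a conservative one. Among the 9334 genes without a conservative summit, 431 (4.62%) had a member. Where a gene had several start sites or a close neighbour, 1 member could serve more than 1 gene.

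The axon guidance, Wingless and Hedgehog, and Notch lists had shares above that background, on small counts. Of 38 axon guidance and neural adhesion genes, 6 (15.8%) had a member, with 14 (36.8%) holding a conservative peak. They were PlexB, Abl (a kinase that acts in growth cones, second-list signal 104), Pak (a kinase, 85.2), Dscam1 (a cell adhesion molecule of many isoforms, 81.4), robo2 (a Slit receptor, 81.0) and Fas1 (an adhesion molecule, 77.9). In the replicates, Abl had 68.3 and 26.1, Dscam1 had 53.7 and 27.7 and robo2 had 54.3 and 29.3, all higher in replicate 1. Pak had 33.8 in replicate 1 and 41.4 in replicate 2. Fas1 had 35.2 and 33.5.

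Of 26 Wingless and Hedgehog pathway genes, 4 (15.4%) had a member. They were pan, ptc (the Hedgehog receptor Patched, 88.5), fz2 (77.0) and fz (67.3), both Frizzled receptors for Wingless. Their replicate 1 signals ran from 51.6 at fz2 to 225 at pan, and in replicate 2 they were 20.3 at ptc, 27.0 at fz2 and 8.72 at fz. All 4 were higher in replicate 1 or absent from replicate 2. So were most members, with 322 of 386 higher in replicate 1 and 16 more without a call in replicate 2. Of 24 Notch pathway genes, 3 (12.5%) had a member: mam (118), Ser, which encodes the ligand Serrate (75.5), and neur, which encodes the ubiquitin ligase Neuralized (67.0). The peak at neur was higher in replicate 2, with 29.6 in replicate 1 and 47.6 in replicate 2.

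Lists for other neural genes lay nearer the background. Of 33 neuroblast and temporal genes, svp alone had a member (3.03%), and of 31 pan-neuronal and synaptic genes, Dscam1 and bru3, an RNA-binding protein gene, had one (6.45%). Glial genes had 0 of 19, mesoderm and muscle genes 0 of 30, and Hox genes 0 of 8.

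Lists of broadly expressed genes were uneven. Ribosomal protein genes had 7 of 87 (8.05%), including RpL27A (87.9), RpLP2 (83.7) and RpL24 (82.8). Mitochondrial ribosomal protein genes had 4 of 72 (5.56%), among them mRpL19 (91.6) and mRpL27 (84.9). Replication and cell cycle genes had 4 of 47 (8.51%), namely CycB3, a B-type cyclin gene (72.5), dpa, an MCM helicase subunit gene (67.6), dup, a licensing factor gene (65.0), and aurB, a mitotic kinase gene (62.4). Autophagy genes had 3 of 19 (15.8%), namely Atg18a (74.4), Atg1 (72.6) and Atg5, whose peak is shared with Dok (69.7). Transfer RNA synthetase genes had AlaRS (87.0) and MetRS (75.9, a peak nearest to CG15084) of 30. DNA repair genes had Xpd (75.2) and hay (62.4) of 29. Respiratory chain genes had SdhD (89.8), ND-15 (83.0) and Cyt-c-p (69.5) of 88, or 3.41%.

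Some lists that were rich in conservative peaks held no member or 1. Others as rich held more, such as autophagy (52.6%) with 3 members and replication and cell cycle (48.9%) with 4. A member cannot overlap a conservative peak, so the choice itself limits members at genes with a conservative summit. Among all 9334 genes with a ranked call and no conservative summit, 4.62% had a member. Such genes numbered 27 for translation factors, 30 for Mediator, 13 for nuclear pore, 11 for Hippo and 53 for vesicle trafficking. On so few genes, counts of 0 or 1 are not read as a lack of members. Translation factor genes had 0 of 49 with 44.9% in the conservative list, Mediator and general transcription factor genes 0 of 49 with 38.8%, nuclear pore genes 0 of 24 with 45.8% and Hippo pathway genes 0 of 22 with 50%. Promoter and insulator factor genes had 0 of 21, and 17 of the 21 (81.0%) had a conservative peak, which leaves 4 that could have had a member alone. Vesicle and endosome trafficking genes had 1 of 100, Sec71 (75.5). The proteasome list had Prosbeta7 (82.3) of 43, the spliceosome list Sf3b6 (71.6) of 33 and the Polycomb and Trithorax list Su(z)2 (82.8) of 33. The peak counted for Sf3b6 lay nearest to Tnpo.

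Lists of narrowly expressed genes held few peaks of either kind. Chemosensory receptor genes had 0 of 137 members and 1.46% in the conservative list, cuticle protein genes had none of either in 79, and cytochrome P450 genes had Cyp9f2 (75.8) of 67. Genes with no given name had 142 of 5097 (2.79%), led by CG12096, CG32112 and CG2006.

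**Figure D5:**
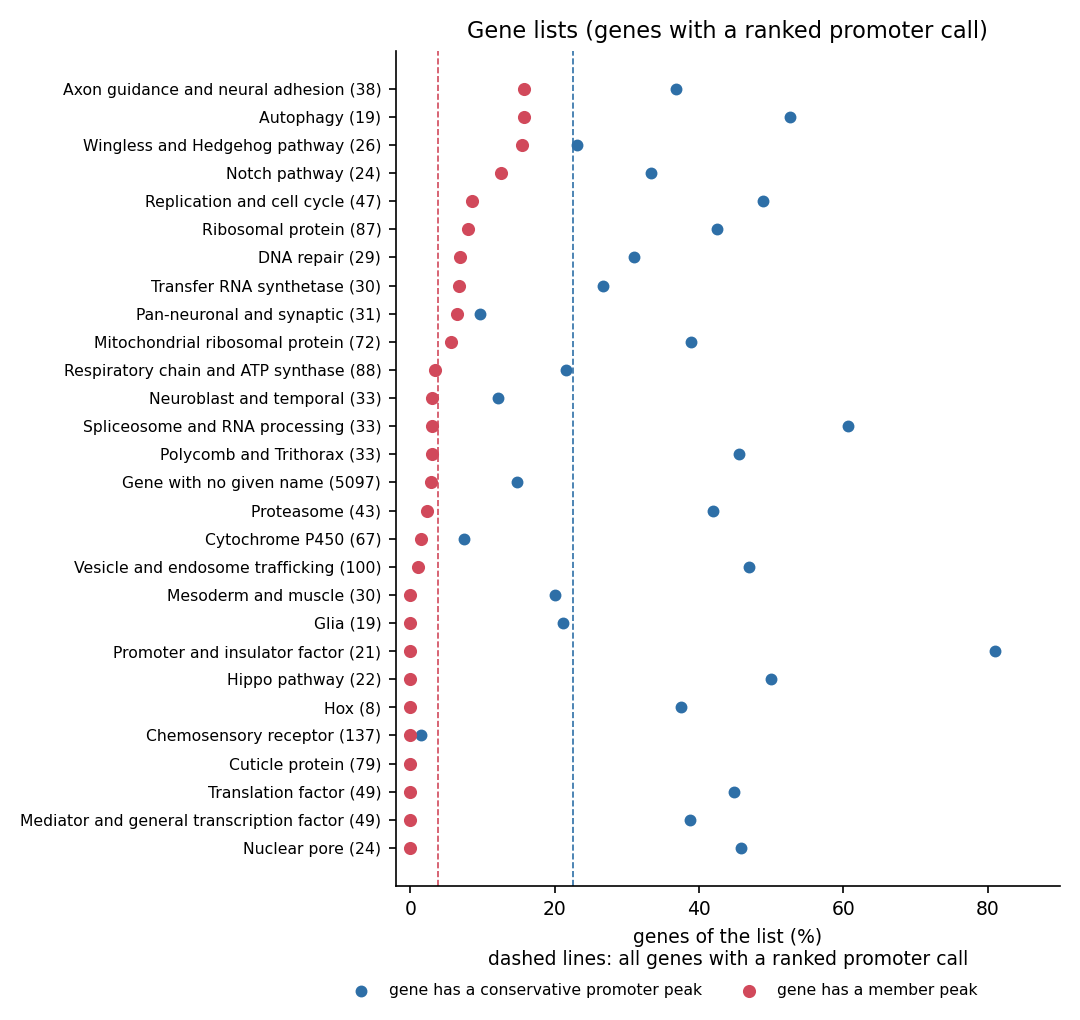
Share of each list's genes (horizontal axis, percent, with the number of genes with a ranked promoter call in brackets) that had a member peak (red) or a conservative promoter peak (blue), with dashed lines at the shares over all such genes, 3.89% and 22.5%. Axon guidance, autophagy, Wingless and Hedgehog and Notch lists lie highest for members. The promoter and insulator factor list is highest for conservative peaks with none for members, and only 4 of its genes lacked a conservative peak.

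Members share no base with a conservative peak by their choice, so some distance from conservative summits was built in. The median distance from a member's summit to the nearest conservative summit was 8310 bp, and 33 members lay within 1000 bp of one. No other set of peaks was measured in this way. The nearest gene of 33 members (8.21%) also had a conservative summit at a start site. Over all 12042 genes with a ranked call the share with a conservative summit was 22.5%. That share counts genes instead of members, and the lack of overlap bears on the comparison.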

How the data were processed

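Peak lists from ChIP-seq of 2 samples of 1 group were analysed. The authors placed peaks on build dm6, per the labels; aligner and peak caller: not given in the sources used here. Both pooled lists draw on both replicates, per the notes deposited with the samples, and how the second differs from the conservative list is not stated. The deposited scores are whole numbers, higher at a lower IDR, the deposited signal comes from the caller and its relation to a control is not stated, and the ranked lists hold a deposited −log10 of the IDR. Another 32 columns in the 4 ranked lists, 8 in each, name no sample and were not used.

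Overlap meant at least 1 bp. Start sites came from Ensembl release 115, and sequence from the Release 6 assembly. Peaks that overlap each other were kept. Motifs were searched on both strands within 50 bp of the summit: the 7 named above and 13 others. Of these, the Ohler E-box was searched as CAGCTG, while the letters used for the proneural E-box were CANCTG. For the factor Snail the search used CAGGTG, and for the early activator Zelda it used CAGGTA. Among core promoter elements, the letters of the TATA box were TATAAA, those of the initiator TCAGT, those of the polypyrimidine initiator CTTTTC and those of the downstream element CGGACG. The insulator protein known as CTCF was represented by AGNNGGCGC, while the vertebrate relative INSM1 was represented by CAGGGG. The Polycomb recruiter Pho was represented by GCCAT, the cyclic AMP response element by TGACGTCA, and the site of Myc and Max proteins by CACGTG. Proneural E-box takes in the Ohler E-box. Fisher tests were adjusted by Benjamini-Hochberg over the 20 motifs or the 7 arms; the divergent test was single. Wilson intervals cover counting error only. Of 423 gene symbols written, 22 matched through a synonym and 4 did not match. Functions were tested on simulated data. Python 3.11.15, pandas 2.3.3, numpy 2.4.6, scipy 1.17.1, statsmodels 0.14.6 and matplotlib 3.10.9 were used.

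The members and lists were chosen with earlier results of these data known. Named genes were those of the 12 members with the highest signal, the 5 highest and 5 lowest replicate ratios (1 of these is not reported here), the strongest DRE and M1BP members, up to 3 members per gene list and those at the threshold; GAGA members, members without a replicate 2 call and further list members were named after their values were seen. Alternatives tried were promoter windows of 250 and 1000 bp, an overlap of 0.5 of a peak, the 201 stronger members, matched signal, each replicate's own list, motif windows of 25 and 100 bp and, added after seeing the data, leaving out peaks that overlap a stronger peak.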

Additional observations from a re-analysis of the deposited data

How the results depend on the processing

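Against conservative promoter peaks at the members' signal, the DRE odds ratio was 0.512 and the Ohler motif 7 odds ratio 0.750, neither past the threshold any longer, the median distance difference was 13 bp, and 2 motifs and 0 arms differed; the cause was not tested. With the 201 members of higher signal, the Ohler motif 7 odds ratio was 0.668 and missed the threshold, and 1 arm differed. With a motif window of 25 bp, the Ohler motif 7 odds ratio was 0.537 and missed the threshold.

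When each replicate's own thresholded list took the place of the second list, leaving out replicate 1 left 55 peaks and leaving out replicate 2 left 310. The comparison set changed too, to the promoter peaks of that same list that overlap a conservative peak, 1364 and 1694. The conservative list, which draws on both replicates, stayed the same, so neither replicate was wholly left out. Across both settings, the DRE odds ratio ran from 0.266 to 0.385, M1BP from 0.776 to 1.48 and Ohler motif 7 from 0.424 to 0.653. The divergent promoter odds ratio ran from 0.392 to 1.05, the GC difference from 1.64 to 3.83 percentage points and the distance difference from 23 to 28 bp. From 2 to 5 motifs and 0 to 3 arms differed. M1BP and divergent promoters reversed without replicate 1, where DRE, Ohler motif 7 and GC missed the threshold; fewer peaks were tested there. Under the other promoter windows, the overlap of 0.5 of a peak and the exclusion of overlapping peaks (added after seeing the data), the 6 motifs, the 2 arms and the both-strand result kept their calls. The proneural E-box also passed with windows of 250 and 1000 bp (7 and 8 motifs in all), and the TATA box with the latter and with a motif window of 100 bp (7 motifs). The GC box missed the threshold with the 201 members, the motif window of 25 bp and either replicate left out. No paired analysis was possible because there is only 1 group. Read depth is unknown, so what it limits cannot be given.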
